A study of Homo sapiens with 8 samples.

Results

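The 37 genes described here act in mitosis and in the G2 phase that precedes it: cyclins and CDK1 with its activating phosphatases, mitotic kinases, spindle checkpoint genes, partners of the anaphase-promoting complex, centromere and kinetochore genes, mitotic kinesins, spindle and cytokinesis proteins, and the chromosome proteins MKI67 and TOP2A. They were listed by name, and all 37 were found among the 19305 RefSeq transcript accessions of the count files, with 1 accession per gene. All 37 passed the filter on low counts, which left 14565 genes for testing. Their counts ranged from 32 for KIF18A to 21752 for PLK1 in a library.

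Polyadenylated RNA was sequenced from 2 human cell lines in 4 groups of 2 libraries each. H9 cells, a human embryonic stem cell line, carried an shRNA against eIF2A or a control shRNA, with no stress agent named in their labels. HEK293T cells, a transformed line derived from human embryonic kidney, carried an siRNA against eIF2A or a control siRNA, and all 4 HEK293T libraries, controls included, came from cells treated with sodium arsenite, an oxidative stressor. eIF2A is a translation factor able to deliver initiator tRNA to ribosomes, and the study asked what its depletion does in stem cells and in stressed cells. The labels give neither the number of hairpin or siRNA sequences nor whether replicate libraries are from separate cultures. Every p-value therefore reflects the spread among these libraries alone, which may be technical.

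Cells enter mitosis when CDK1, bound to cyclin A or cyclin B, is freed of inhibitory phosphates by the CDC25 phosphatases. The spindle checkpoint then restrains the anaphase-promoting complex until kinetochores are attached to microtubules, after which CDC20 and UBE2C help this ubiquitin ligase to mark cyclin B and securin for destruction. Many of these genes are transcribed late in the cell cycle under a shared pair of promoter elements. One is the cell cycle genes homology region (CHR), bound by the DREAM and MYBL2-MuvB complexes, and the other is the CCAAT box, bound by NF-Y. Human embryonic stem cells are known for a short G1 phase and for high levels of many mitotic transcripts.

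The promoters of 6 of the genes are printed because they carry this shared pair while their transcripts took different directions in H9 as measured: KIF23, KIF11 and MKI67 were higher after eIF2A depletion, CCNB2 was not called, and PLK1 and CDC20 were lower. Each is the 120 bases before the annotated start, from RefSeq on build GRCh38.p14, 5′ to 3′ on the strand of the gene. Capitals mark TTTGAA or TTCGAA, the CHR core, and CCAAT, each searched on both strands, so that TTCAAA and ATTGG are their reverse complements. In MKI67 a CHR core and a CCAAT box share bases.
KIF23, chr15:69414229-69414348, plus strand: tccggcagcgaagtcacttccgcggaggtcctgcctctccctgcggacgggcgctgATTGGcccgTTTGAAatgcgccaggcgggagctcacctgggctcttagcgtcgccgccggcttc
KIF11, chr10:92593010-92593129, plus strand: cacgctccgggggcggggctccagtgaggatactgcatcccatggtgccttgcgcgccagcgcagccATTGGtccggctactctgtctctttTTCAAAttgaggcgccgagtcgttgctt
MKI67, chr10:128126424-128126543, minus strand: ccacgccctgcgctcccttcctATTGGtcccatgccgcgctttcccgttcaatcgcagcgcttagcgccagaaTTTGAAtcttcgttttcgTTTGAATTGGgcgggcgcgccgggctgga
CCNB2, chr15:59105026-59105145, plus strand: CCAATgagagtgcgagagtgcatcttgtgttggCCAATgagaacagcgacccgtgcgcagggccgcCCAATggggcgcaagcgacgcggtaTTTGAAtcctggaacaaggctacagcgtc
PLK1, chr16:23678769-23678888, plus strand: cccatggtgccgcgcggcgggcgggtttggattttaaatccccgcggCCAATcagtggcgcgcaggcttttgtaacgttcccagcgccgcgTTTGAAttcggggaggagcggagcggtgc
CDC20, chr1:43358861-43358980, plus strand: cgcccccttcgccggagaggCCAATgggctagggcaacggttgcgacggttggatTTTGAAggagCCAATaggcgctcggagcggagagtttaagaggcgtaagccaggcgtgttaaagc

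In the window from 250 bases before to 50 bases after the start, 31 of the 37 genes matched an entry of the RefSeq promoter table used here, and AURKA, BIRC5, BUB3, TPX2, TTK and UBE2C were not matched. TTTGAA or TTCGAA was present in 25 of these 31 (80.6%), against 15.3% of 11718 tested genes with an entry. CCAAT was present in 25 of 31 (80.6%), against 42.5%. Both were present in 21 of 31 (67.7%), against 6.40%. Over all promoters of the members, the CHR core began at a median position of -24.5 and CCAAT at -87, counted in bases from the start. Of the 21 genes with both elements, 15 were higher and 4 lower in H9 after eIF2A depletion as measured, beside 37% and 34.3% of all genes tested, and 10 were higher and 5 lower once a trend over GC content and transcript length was removed, beside 20.9% and 29%. The 10 without an exact match to both were CCNB1, CCNA2, AURKB, BUB1B, CENPE, KIF20A, KIF2C, NDC80, NUF2 and ANLN. Of these, 8 were higher and 1 lower as measured, and 3 and 1 with the trend removed. An element of variant sequence, or one outside the window, would not be matched. Whether genes with and without a match to both differ was not tested.

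Gene counts per library ranged from 21837052 to 32318668, and the 2 libraries of a group differed by a median of 0.04 to 0.07 log2 units over the 37 genes. EIF2A stood at 5.03 and 4.67 CPM (gene counts scaled to a common library size) in H9 with eIF2A shRNA, against 15.8 and 14.8 CPM in H9 controls. It stood at 5.58 and 5.98 CPM in HEK293T with eIF2A siRNA, against 17.5 and 18.3 CPM in HEK293T controls. NANOG, DPPA4 and L1TD1, markers of pluripotent cells, had at least 1027 counts in every H9 library and 0 counts in every HEK293T library. They are from a list of 10 such markers, of which 6 had under 10 counts in every HEK293T library. The 10 summed to 6390 and 6500 CPM in H9 with eIF2A shRNA, against 6580 and 6560 CPM in H9 controls. In HEK293T they summed to 167 to 185 CPM. Of the markers listed for the kidney line, PAX2 had 118 to 197 counts in HEK293T and 0 to 2 in H9. PAX8, also a kidney gene, had 0 to 2 in HEK293T. Of the 6 listed, 5 were called lower in H9 controls than in HEK293T controls, and 1 was called higher (log2 fold change 7.24). Reads of no counted feature made up 20.8% and 20.6% of the reads in H9 with eIF2A shRNA, against 18.8% and 18.4% in H9 controls. The summed level of 5 neural markers was 170 CPM in each H9 library with eIF2A shRNA, against 349 and 367 CPM in the controls. TUBB3, a neuronal tubulin, gave most of that sum, and PAX6 and NEUROD1 had at most 8 counts in H9. The summed level of 7 fibroblast markers was 878 and 890 CPM with eIF2A shRNA, against 1010 CPM in each control, with DCN and LUM at 0 to 3 counts. Of the 7, 3 had under 10 counts in every H9 library, so the sum rests on the others. The part of these shifts in the results for the mitotic genes was not tested.

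In H9 as measured, 26 of the 37 mitotic genes were higher after eIF2A depletion, 8 were lower, and 3 (CCNB1, CCNB2 and CENPA) were not called. Calls are at an adjusted p under 0.05 by edgeR's quasi-likelihood test with Benjamini-Hochberg adjustment over all genes. The changes were wide: 13 of the 37 were at least 2-fold higher and none was 2-fold lower, beside 15.9% and 0.899% of all genes tested. The median log2 fold change was 0.72, against 0.02 over all genes tested. The background was broad, with 37% of all genes called higher and 34.3% called lower. In bulk RNA, more cells in mitosis and more RNA per cell cannot be told apart. After a trend over GC content and transcript length was removed from every library, 13 of the 37 were higher, 10 were lower and 14 passed no test, with a median of 0.04. The background was then 20.9% higher and 29% lower. With the trend removed none of the 37 was 2-fold higher, and BUB3 was 2-fold lower. BUB3 had a log2 fold change of -0.09 as measured, and its value with the trend removed rests on an annotated length of 7828 nt.

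**Figure D1:**
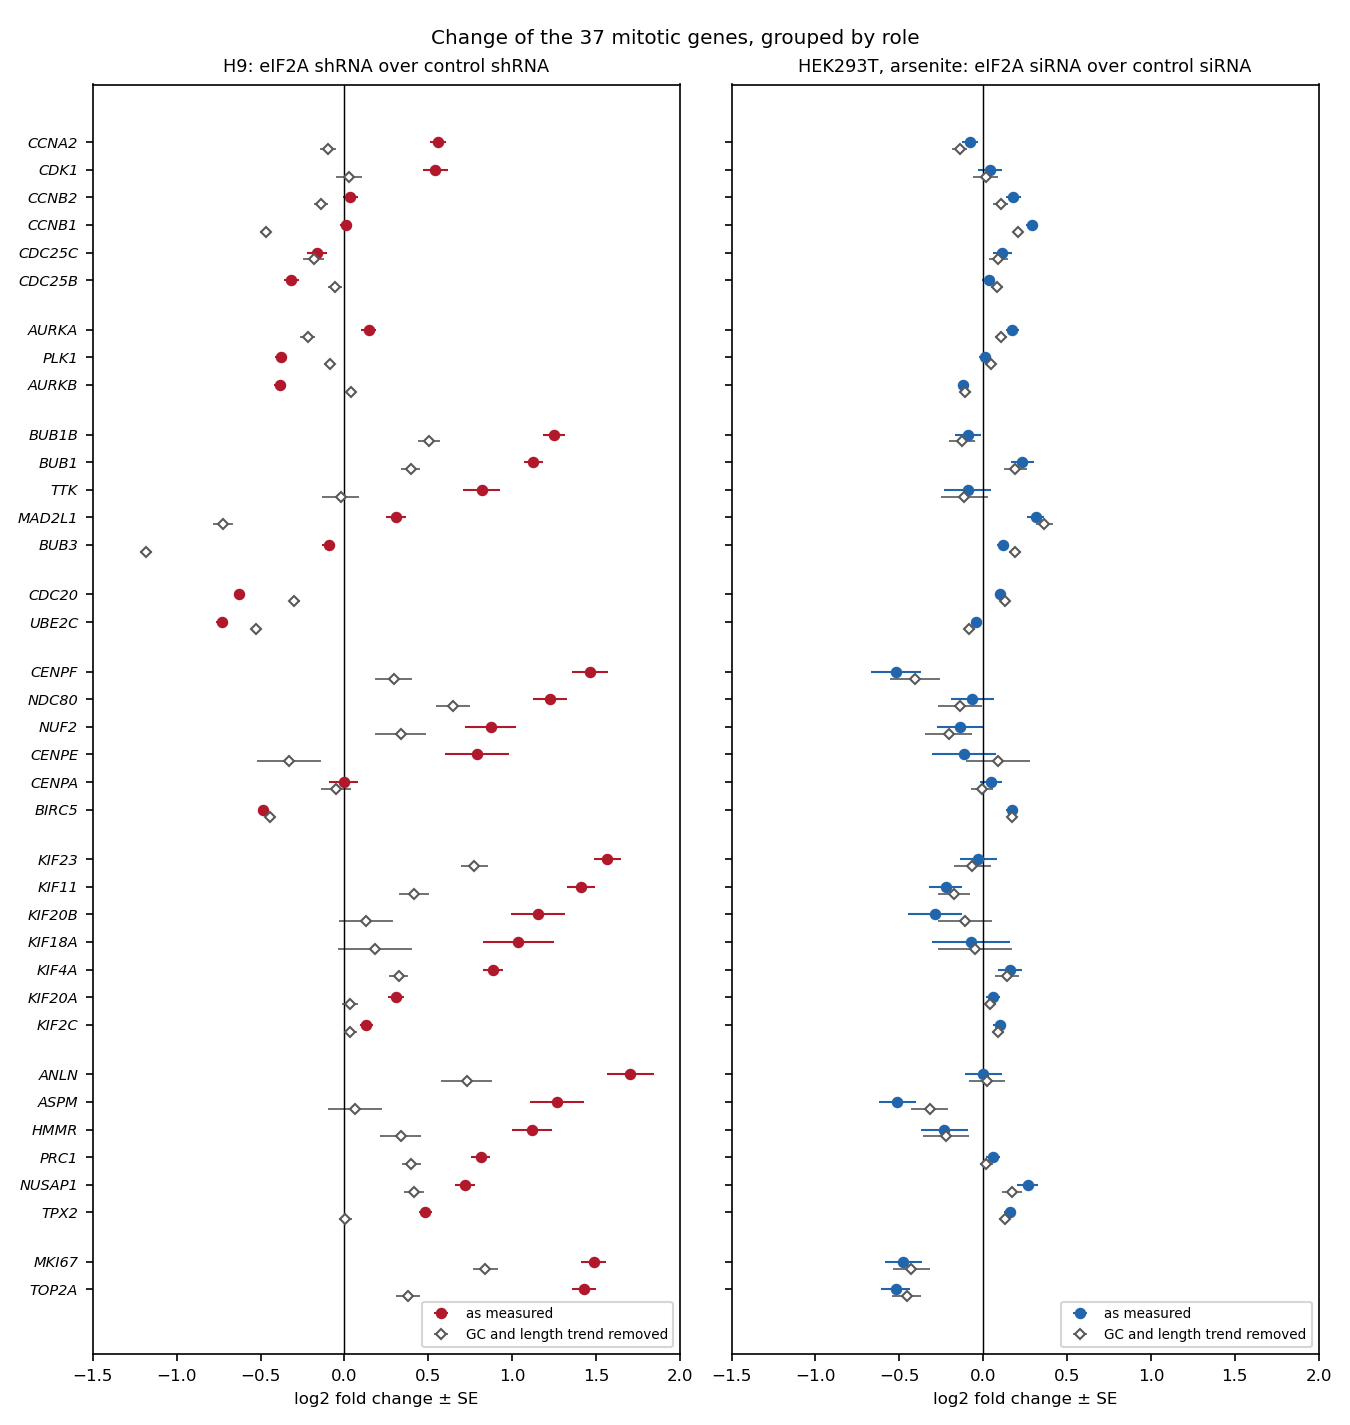
Log2 fold change ± SE of the 37 genes, one row each, grouped by role from cyclins at the top to chromosome proteins at the bottom; filled circles are as measured and open diamonds have the GC and length trend removed. In H9 (left) 26 circles stand above 0 with a call, and kinesins, spindle proteins and chromosome proteins all lie to the right, while in HEK293T (right) the changes lie between -0.52 and 0.31.

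The kinesins, motors that build and position the spindle, were all 7 higher in H9 as measured, and 3 of them were still higher with the trend removed. The background for every role was 37% of all genes higher and 34.3% lower as measured, and 20.9% and 29% with the trend removed. KIF23, the motor subunit of the centralspindlin complex that acts in cytokinesis, stood at 32.2 and 33.9 CPM with eIF2A shRNA, against 11.1 and 11.2 CPM in controls. It was 2.96-fold higher (log2 fold change 1.57 ± 0.08 SE; edgeR adjusted p = 2.2e-18), and with the trend removed the log2 fold change was 0.78 (adjusted p = 2.2e-10, edgeR). KIF11, the motor that pushes spindle poles apart, stood at 27.6 and 26.3 CPM with eIF2A shRNA, against 9.84 and 10.5 CPM in controls. It was 2.66-fold higher (log2 fold change 1.41 ± 0.085; edgeR adjusted p = 2.1e-16), and the value with the trend removed was 0.41. The 2 libraries with shRNA lay well above the 2 controls for each of these motors. Both knockdown libraries lay above both controls for 43.88% of all genes tested in H9. KIF4A, a chromosome-bound motor, was 1.85-fold higher and kept a call at 0.32 with the trend removed. KIF4A has a near-identical copy, KIF4B, and reads that aligned to more than 1 place were set aside, so its level is less certain. KIF20B and KIF18A, at 1.58 to 6.61 CPM in H9, were 2.22-fold and 2.05-fold higher as measured, but their values with the trend removed were 0.13 ± 0.16 and 0.18 ± 0.22 (edgeR adjusted p = 0.54 and 0.51). KIF20A and KIF2C had the smallest changes, at 0.31 and 0.13 as measured and 0.03 and 0.04 with the trend removed, and KIF2C was -0.03 under DESeq2's size factors. The call of KIF2C was lost without H9 control replicate 1 (0.10) or eIF2A shRNA replicate 2 (0.12).

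The spindle and cytokinesis proteins followed the kinesins, with all 6 higher as measured and 4 still higher with the trend removed. ANLN, the scaffold protein anillin of the contractile ring, stood at 11.9 and 10.4 CPM with eIF2A shRNA, against 3.68 and 3.16 CPM in controls. It was 3.26-fold higher, the widest change of the 37 (log2 fold change 1.70 ± 0.14; edgeR adjusted p = 6.6e-13), with 0.73 left after the trend was removed. PRC1, which bundles antiparallel microtubules of the central spindle, stood at 46.7 and 49.3 CPM, against 27.98 and 26.61 CPM in controls. Its log2 fold change was 0.81 ± 0.057 as measured and 0.40 with the trend removed. NUSAP1 and HMMR, microtubule-binding proteins of the spindle, were called in both fits, at 0.72 and 1.12 as measured and 0.42 and 0.33 with the trend removed. ASPM, a spindle pole protein, and TPX2, the activator of Aurora A, were called only as measured. ASPM stood at 6.73 and 6.57 CPM with eIF2A shRNA, against 2.66 and 2.86 CPM in controls, and its log2 fold change of 1.27 ± 0.16 was 0.06 ± 0.16 with the trend removed. TPX2 had 0.48 ± 0.039 as measured and 0.01 ± 0.039 with the trend removed.

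Both chromosome proteins were higher in H9 in both fits. MKI67, the Ki-67 protein that coats mitotic chromosomes and is a common marker of dividing cells, stood at 52.6 and 54.6 CPM with eIF2A shRNA, against 20.8 and 17.3 CPM in controls. It was 2.80-fold higher (log2 fold change 1.49 ± 0.075; edgeR adjusted p = 3.4e-18), and with 0.84 it had the largest value of the 37 once the trend was removed (adjusted p = 2.7e-12, edgeR). TOP2A, the topoisomerase that separates intertwined sister DNA, stood at 66.8 and 68.5 CPM with eIF2A shRNA, against 26.5 and 23.6 CPM in controls. It was 2.69-fold higher (log2 fold change 1.43 ± 0.072), with 0.38 left after the trend was removed (edgeR adjusted p = 3.1e-05).

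Among checkpoint genes, which hold back anaphase, 4 of 5 were higher as measured and 1 was lower. BUB1 and BUB1B, checkpoint proteins recruited to kinetochores, were 2.18-fold and 2.38-fold higher and were called in both fits, at 0.39 and 0.50 with the trend removed. TTK, the MPS1 kinase that starts checkpoint signalling, had 0.82 ± 0.11 as measured and -0.02 ± 0.11 with the trend removed. MAD2L1, which binds and inhibits CDC20, stood at 36.7 and 38.7 CPM with eIF2A shRNA, against 30.4 CPM in each control, and its log2 fold change turned from 0.31 as measured to -0.72 with the trend removed. BUB3, the partner of BUB1, had -0.09 ± 0.038 as measured (edgeR adjusted p = 0.027) and -1.18 with the trend removed. The call of BUB3 as measured was lost without H9 control replicate 1 (-0.06), eIF2A shRNA replicate 1 (-0.11) or eIF2A shRNA replicate 2 (-0.08). MAD2L1 and BUB3 carry annotated lengths of 5468 and 7828 nt, which may not be the lengths the authors counted. With a trend on GC content alone, MAD2L1 had -0.55 and BUB3 -0.88. This fit cannot settle that doubt, because the GC contents come from the same annotated transcripts. BUB3 has 4 annotated transcripts, and the one taken as their median has 1361 nt and 47.0% GC.

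The partners of the anaphase-promoting complex went the other way, and both were lower in H9 in both fits. UBE2C, the ubiquitin-conjugating enzyme of the complex, stood at 204.7 and 203.5 CPM with eIF2A shRNA, against 337 and 339.6 CPM in controls. It had the lowest log2 fold change of the 37 (-0.73 ± 0.033, a fold of 0.603; edgeR adjusted p = 1.6e-19), and -0.53 with the trend removed. CDC20, the coactivator that the checkpoint inhibits, stood at 397 CPM in each library with eIF2A shRNA, against 603 and 622 CPM in controls. Its log2 fold change was -0.63 ± 0.033 (edgeR adjusted p = 4.2e-18), and -0.30 with the trend removed. For both genes each knockdown library lay below each control, as for 40.97% of all genes tested in H9.

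The kinases PLK1 and AURKB were lower and AURKA was slightly higher as measured. PLK1, which drives mitotic entry, centrosome maturation and cytokinesis, stood at 335 and 345 CPM with eIF2A shRNA, against 441 and 442 CPM in controls, with a log2 fold change of -0.38 ± 0.034 and of -0.09 with the trend removed (edgeR adjusted p = 0.026). AURKB, the kinase of the chromosomal passenger complex, stood at 200 and 203 CPM, against 266 and 260.0 CPM in controls. Its log2 fold change was -0.38 ± 0.035 as measured and 0.04 ± 0.033 with the trend removed. The latter rests on an annotated length of 739 nt, and with a trend on GC content alone the sign did not turn. AURKA, the spindle pole kinase, had 0.14 ± 0.045 as measured, but -0.22 with the trend removed and -0.01 under DESeq2's size factors, and its call was lost without H9 control replicate 1 (0.10).

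Of 6 centromere and kinetochore genes, 4 were higher, 1 was lower and 1 passed no test as measured. NDC80 and NUF2, subunits of the complex that grips microtubules, and CENPF and CENPE, large coiled-coil proteins of the outer kinetochore, were higher as measured. CENPF stood at 23.5 and 22.5 CPM with eIF2A shRNA, against 9.70 and 6.91 CPM in controls. Its log2 fold change was 1.46 ± 0.11 (edgeR adjusted p = 3.5e-14), and 0.29 with the trend removed (edgeR adjusted p = 0.019). The control libraries of CENPF differed by 0.49 log2 units, the widest gap between H9 control replicates among the 37 genes. NDC80 had 1.22 ± 0.10 as measured and 0.65 with the trend removed. NUF2 had 0.87 ± 0.15 and CENPE 0.79 ± 0.19 as measured, but 0.33 and -0.33 with the trend removed, where edgeR's adjusted p was 0.071 and 0.16. CENPA, the histone variant that marks centromeres, stood at 14.7 and 13.9 CPM with eIF2A shRNA, against 13.8 and 15.0 CPM in controls, and the groups overlapped. BIRC5, survivin of the passenger complex, was the lower gene of this group, at 287 CPM in each library with eIF2A shRNA, against 401 and 404 CPM in controls. Its log2 fold change was -0.49 ± 0.031 as measured and -0.44 with the trend removed (edgeR adjusted p = 7.1e-15).

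Of 6 cyclin, CDK1 and CDC25 genes, 2 were higher, 2 were lower and 2 passed no test as measured. These counts are near the background of 37% higher and 34.3% lower over all genes. None of the 6 was higher with the trend removed, beside a background of 20.9%. CDK1 stood at 29.1 and 27.2 CPM with eIF2A shRNA, against 19.9 and 18.9 CPM in controls, a log2 fold change of 0.54 ± 0.075 (edgeR adjusted p = 8.5e-08). With the trend removed it was 0.03 ± 0.077. CCNA2, cyclin A2, had 0.56 ± 0.049 as measured and -0.10 ± 0.049 with the trend removed. CCNB1, cyclin B1, stood at 287.8 and 280.2 CPM with eIF2A shRNA, against 280.3 and 285 CPM in controls, so its groups overlapped (log2 fold change 0.01 ± 0.033; edgeR adjusted p = 0.86). Set against the trend of its GC content and length, it was lower, with -0.47 (edgeR adjusted p = 7.6e-15). CCNB2, cyclin B2, had 0.04 ± 0.043 as measured and -0.14 with the trend removed, where it was called. CDC25B stood at 90.7 and 88.7 CPM, against 113 and 111 CPM in controls, with -0.32 ± 0.044 as measured and -0.06 ± 0.043 with the trend removed. CDC25C had -0.16 ± 0.061 as measured and -0.18 with the trend removed. Its call as measured was lost without H9 control replicate 1 (-0.13) or eIF2A shRNA replicate 2 (-0.09).

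**Figure D2:**
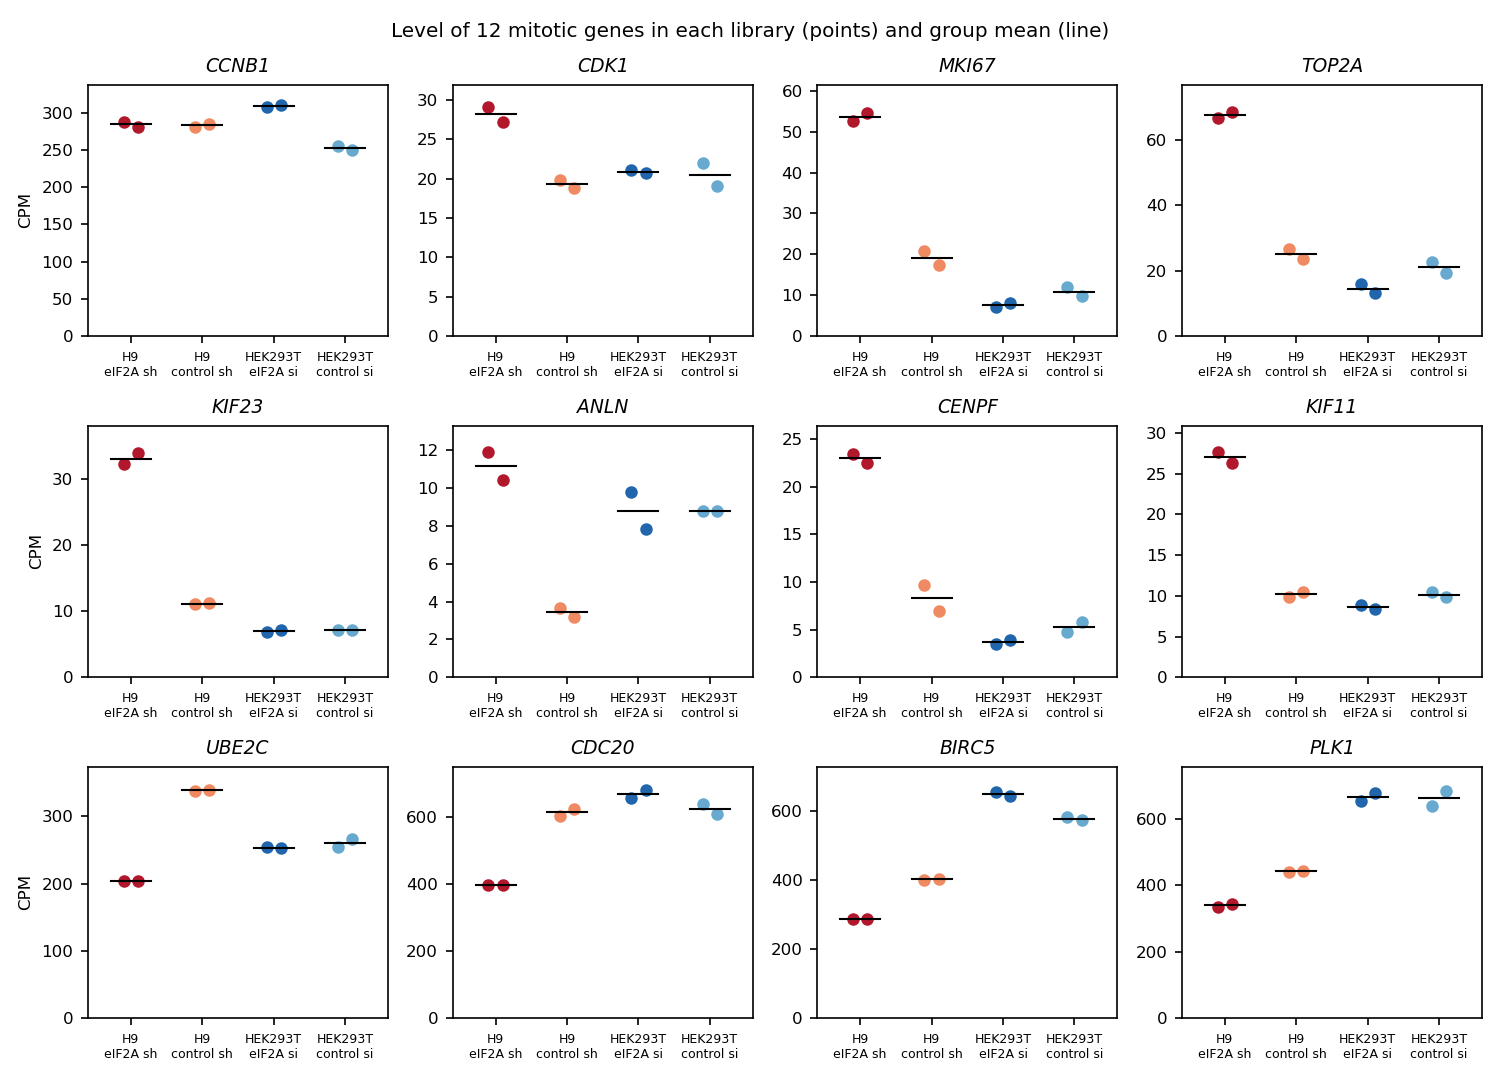
CPM of 12 mitotic genes in each library, with points for libraries, a line for the mean of a group and an axis that starts at 0; sh is shRNA and si is siRNA. MKI67, TOP2A, KIF23, ANLN, CENPF and KIF11 stand above their H9 controls with eIF2A shRNA, UBE2C, CDC20, BIRC5 and PLK1 stand below them, and CCNB1 overlaps.

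In H9 the change of a gene followed the GC content and length of its transcript, over the 37 genes as over all genes. Spearman's rho across the 37 genes was -0.64 with GC content and 0.65 with length, against -0.68 and 0.44 across 14489 genes. These correlations are descriptions across genes that share the same libraries. The 37 transcripts were poorer in GC than most, with a median of 43.2% against 50.5% over all genes tested, and of like length, with a median of 3201 nt against 2971 nt. The 26 higher members had a median GC content of 40.5% and a median length of 3538 nt. The 8 lower members had 54.0% and 2098 nt. UBE2C, the lowest, has 50% GC and 914 nt, whereas ANLN, the highest, has 40.03% GC and 4787 nt.

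Each gene was then set against genes of like GC content and length, in classes bounded at 40, 45, 50 and 55% GC and at 2000 and 4000 nt. In H9, 25 members lay above the median of their class and 12 below, by a median of 0.09 log2 units. KIF23 lay 0.89 and MKI67 0.87 above their class medians of 0.68 and 0.61, and ANLN lay 0.62 above a class median of 1.09. BUB3 and MAD2L1 lay furthest below, at -1.18 and -0.87, in classes that rest on their uncertain annotated lengths. They were followed by CCNB1 at -0.67, UBE2C at -0.39, CENPE at -0.39 and BIRC5 at -0.35. KIF20B, with a log2 fold change of 1.15, was -0.03 from its class median, and PLK1, at -0.38, was -0.02 from its own. Genes called lower with the trend removed include UBE2C, CDC20, BIRC5, CCNB1, MAD2L1 and BUB3, and the 13 called higher include MKI67, KIF23, ANLN, NDC80 and BUB1B.

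**Figure D3:**
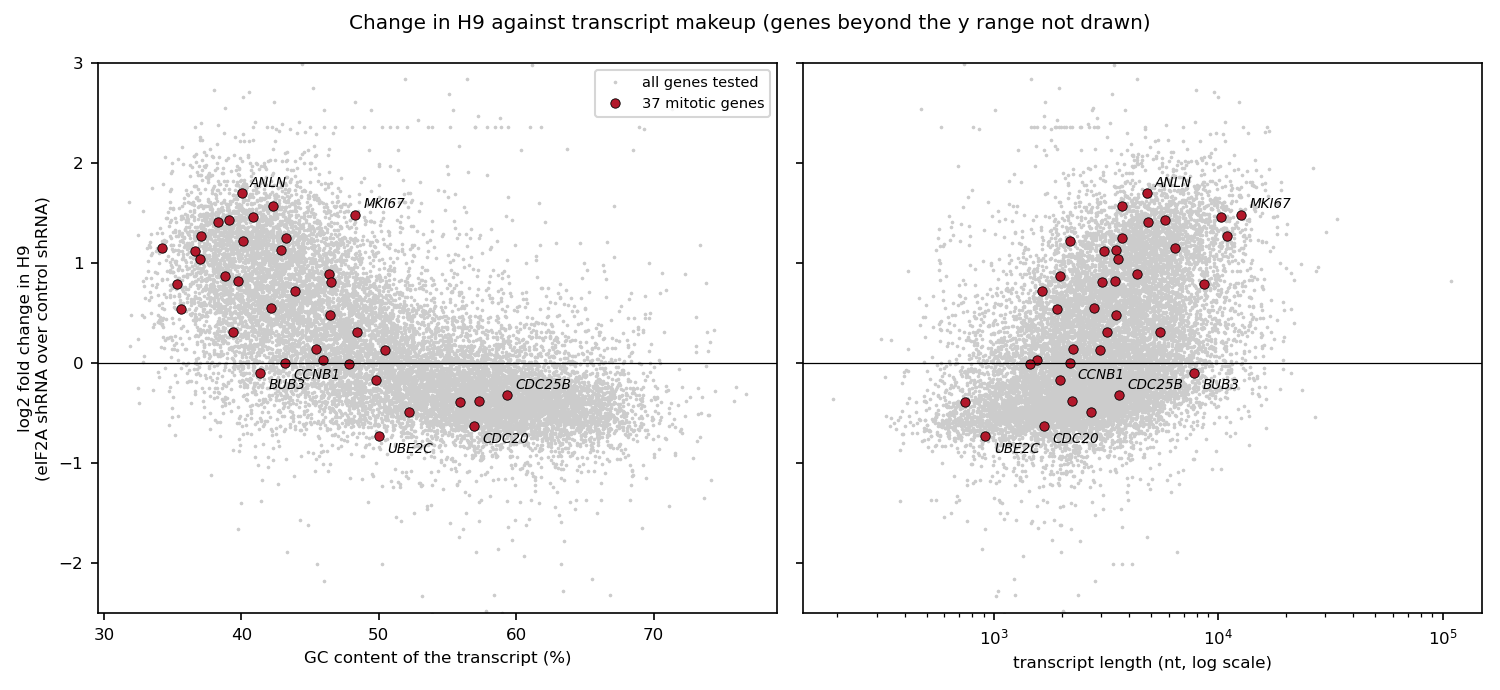
Log2 fold change in H9 (vertical) of all genes tested (grey) and the 37 mitotic genes (red) against the GC content of the transcript in percent (left) and its length in nt on a log scale (right). The red points follow the grey cloud downward with GC content, with rho of -0.64 over the 37 genes, while MKI67 stands above genes of like GC content and BUB3 and CCNB1 stand below them.

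In arsenite-treated HEK293T cells, changes of the same 37 genes as measured were small: 11 were higher after eIF2A depletion, 5 were lower and 21 passed no test, and none changed 2-fold. DESeq2 called 7 higher in place of 11. The background was 14.1% of all genes called higher and 14.7% called lower, and the median log2 fold change of the members was 0.01. The higher genes were CCNB1, CCNB2, AURKA, BUB1, BUB3, MAD2L1, CDC20, KIF2C, TPX2, NUSAP1 and BIRC5. CCNB1 stood at 307.5 and 309.6 CPM with eIF2A siRNA, against 255 and 249.9 CPM in controls (log2 fold change 0.29 ± 0.032; edgeR adjusted p = 1.2e-08). MAD2L1 stood at 53.3 and 54.6 CPM, against 42.0 and 44.6 CPM in controls (log2 fold change 0.31 ± 0.051; edgeR adjusted p = 9e-06). BIRC5 stood at 657 and 644 CPM, against 583 and 574 CPM in controls (log2 fold change 0.17 ± 0.03). AURKA stood at 131 and 128 CPM, against 115 CPM in each control (log2 fold change 0.17 ± 0.039). In each of these 4 genes both eIF2A siRNA libraries lay above both controls, as they did for 28.65% of all genes tested. The call of each remained with the trend removed.

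The 5 lower genes in HEK293T were TOP2A, MKI67, CENPF, ASPM and AURKB. TOP2A stood at 15.9 and 13.1 CPM with eIF2A siRNA, against 22.8 and 19.3 CPM in controls (log2 fold change -0.52 ± 0.088; edgeR adjusted p = 3.3e-05). MKI67 stood at 7.28 and 8.23 CPM, against 12.02 and 9.84 CPM in controls (log2 fold change -0.48 ± 0.11; edgeR adjusted p = 0.00088). ASPM stood at 5.92 and 5.81 CPM, against 7.62 and 8.92 CPM in controls (log2 fold change -0.51 ± 0.11; edgeR adjusted p = 0.00067). For these genes every eIF2A siRNA library was below every control, as for 30.15% of all genes tested. UBE2C stood at 254.0 and 252 CPM with eIF2A siRNA, against 254.0 and 267 CPM in controls. It was not called as measured (log2 fold change -0.04 ± 0.033) and was lower with the trend removed (-0.08; edgeR adjusted p = 0.041). CDK1 stood at 21.0 and 20.8 CPM, against 22.0 and 19.0 CPM in controls, with overlapping groups. With the trend removed, 9 of the 37 were higher and 7 lower, beside a background of 14.9% and 12.8%. Spearman's rho over the 37 genes was 0.42 with GC content and -0.40 with length, whereas across all genes it was -0.10 and -0.09.

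Several calls in HEK293T were lost when 1 library was left out, some of them for more than 1 choice of library. Without control siRNA replicate 2, ASPM (-0.38), CENPF (-0.35), AURKB (-0.08), BUB1 (0.16) and CDC20 (0.06) lost their calls, and 2 lower genes were left. Without eIF2A siRNA replicate 1, CENPF (-0.45), AURKB (-0.09), BUB1 (0.16), BUB3 (0.11), CCNB2 (0.16) and KIF2C (0.10) lost theirs, and 7 higher and 3 lower genes were left. CDC20 also lost its call without eIF2A siRNA replicate 2 (0.08). The call of KIF2C was lost too without control siRNA replicate 1 (0.09), eIF2A siRNA replicate 2 (0.10), H9 eIF2A shRNA replicate 1 (0.10) or H9 eIF2A shRNA replicate 2 (0.10). The control siRNA libraries differed from each other more than those of any other group, with a chi-square per degree of freedom of 4.91, against 1.35 to 1.80 elsewhere, where 1 is sampling noise.

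The effect of eIF2A depletion differed between H9 and arsenite-treated HEK293T for 33 of the 37 genes as measured, in a test of the difference itself: it was higher in H9 for 23 and lower in H9 for 10. The background was 31.1% of all genes higher and 27.0% lower. Line, arsenite and the silencing reagent differ together here and cannot be told apart. MKI67, TOP2A, CENPF and ASPM were called in opposite directions, higher in H9 and lower in HEK293T. Their differences, H9 minus HEK293T, were 1.96 ± 0.13, 1.95 ± 0.11, 1.98 ± 0.19 and 1.78 ± 0.19 log2 units, and 1.27, 0.84, 0.70 and 0.38 with the trend removed, where ASPM passed no test (edgeR adjusted p = 0.12). CDC20, BIRC5 and BUB3 were called lower in H9 and higher in HEK293T. The differences of CDC20 and BIRC5 were -0.73 ± 0.046 and -0.66 ± 0.043, and -0.43 and -0.62 with the trend removed, and that of BUB3 was -0.21 ± 0.053 as measured and -1.38 with the trend removed. UBE2C differed by -0.69 ± 0.047, with -0.44 left after the trend was removed.

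In both lines, 7 genes were called in the same direction. The share over all genes tested was not computed for such calls, nor for calls in opposite directions. AURKA, BUB1, MAD2L1, KIF2C, TPX2 and NUSAP1 were higher and AURKB was lower as measured. In H9, however, removing the trend turned the sign of AURKA, MAD2L1 and AURKB, and DESeq2's size factors turned that of AURKA and KIF2C. A trend on GC content alone did not turn the sign of AURKB in H9. For MAD2L1, AURKA, KIF2C and CENPA no difference between the lines was called as measured, and with the trend removed those of MAD2L1 (-1.09) and AURKA (-0.33) were lower in H9. With the trend removed, 13 differences were higher in H9 and 11 lower, beside a background of 17.7% and 24.8%. As measured, the difference of CCNB2, at an adjusted p of 0.050 by edgeR, lost its call when HEK293T eIF2A siRNA replicate 1 or 2, HEK293T control siRNA replicate 2, H9 control replicate 1 or H9 eIF2A shRNA replicate 2 was left out (-0.17 to -0.11). That of CDC25C was lost without H9 eIF2A shRNA replicate 2 (-0.21), and that of KIF18A was lost without HEK293T control siRNA replicate 2 (0.83).

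**Figure D4:**
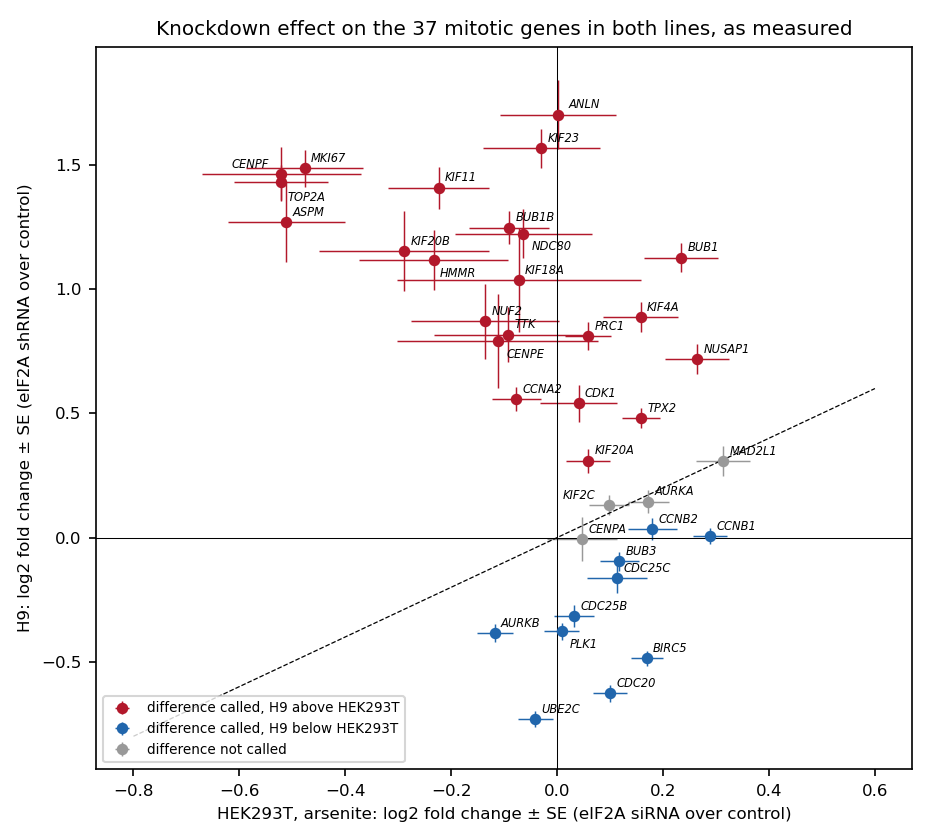
Log2 fold change ± SE after eIF2A depletion in H9 (vertical) against that in arsenite-treated HEK293T (horizontal) for the 37 genes, as measured; the dashed line marks equal effects, and colours give the test of the difference. Of the 37 genes, 23 are called above HEK293T, with MKI67, TOP2A, CENPF and ASPM at the upper left, and 10 are called below, with CDC20, BIRC5 and UBE2C at the bottom.

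Levels between genes were compared as CPM per kb of transcript, with the annotated lengths. In H9 controls, UBE2C (370 CPM per kb), CDC20 (366), AURKB (356), PLK1 (198), BIRC5 (148) and CCNB1 (130) were the 6 most abundant. ASPM (0.25), CENPE (0.26), KIF20B (0.44) and KIF18A (0.49) were the least abundant. The first 3 lay within 1.04-fold of one another at these lengths, but the place of AURKB rests on an accession of 739 nt. At 1254 nt, its longest annotated transcript, AURKB would stand at 161 CPM per kb in H9 with eIF2A shRNA and at 210 CPM per kb in H9 controls, below UBE2C and CDC20 in both. The first 5 of this order were all lower in H9 after eIF2A depletion, and the 19 least abundant were all higher as measured. Of all genes tested, 34.3% were lower and 37% higher. The order is not independent of the change, because it uses the H9 control levels that the change is set against. It also divides by length, with which the change rose over the 37 genes (rho 0.65). Whether level and direction are linked was not tested. In H9 with eIF2A shRNA the top of the order became AURKB (273), CDC20 (237) and UBE2C (223). In HEK293T controls CDC20 (372) led, followed by AURKB (331), PLK1 (297) and UBE2C (285). At 1254 nt AURKB would stand at 195 CPM per kb in HEK293T controls, below CDC20, PLK1, UBE2C and BIRC5 (213).

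**Figure D5:**
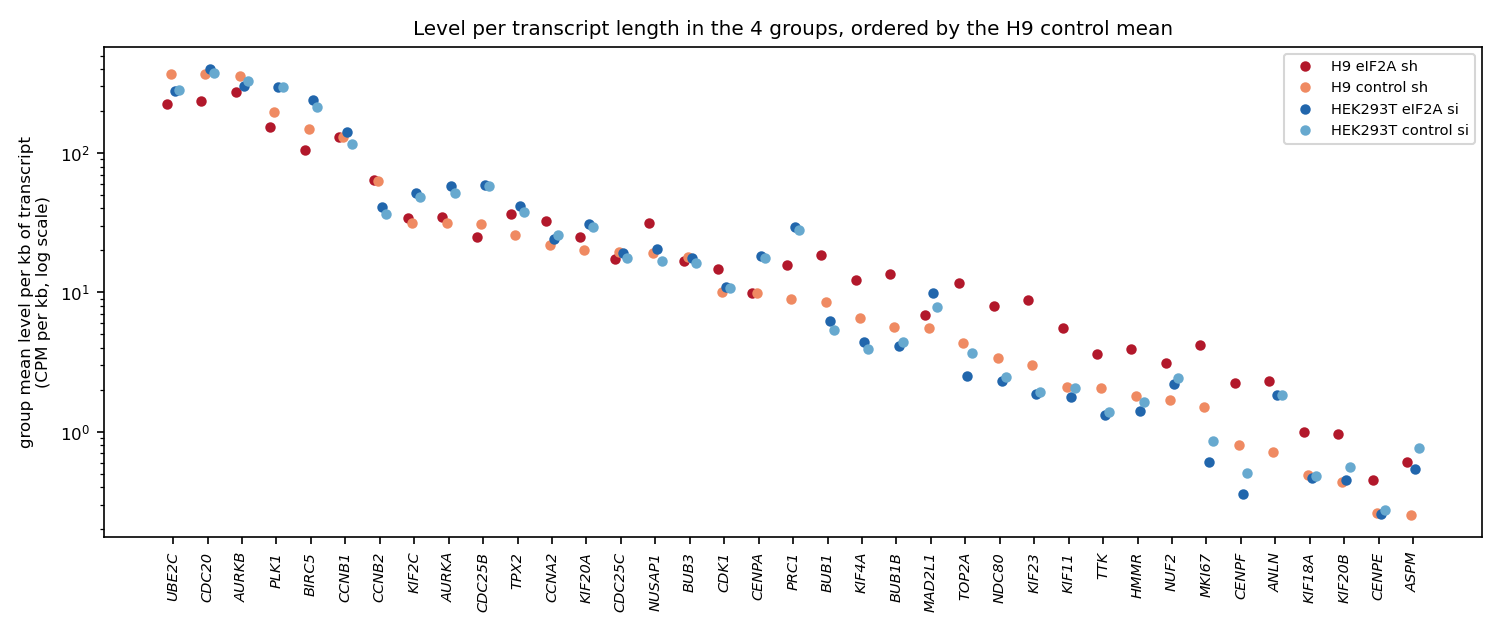
Mean level of the 37 genes in each group as CPM per kb of transcript, on a log scale, ordered by the mean of H9 controls; sh is shRNA and si is siRNA. At the left, UBE2C, CDC20, AURKB, PLK1 and BIRC5 have the H9 eIF2A shRNA mean below the H9 control mean, and from PRC1 rightward it lies above.

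H9 controls and HEK293T controls also differed in these genes before any depletion, in a comparison that shares its controls with the 2 knockdown comparisons. In H9 controls 16 of the 37 were higher and 14 lower than in HEK293T controls, beside a background of 42.3% and 41.2% of all genes. The trend removal shifted all genes by a median of -0.20, and with it 17 of the 37 were higher and 16 lower, beside 35.6% and 48.9%. With upper-quartile scaling, which shifted all genes by a median of -0.16, 10 were higher and 17 lower. PRC1 stood at 27.98 and 26.61 CPM in H9 controls, against 84.7 and 86.2 CPM in HEK293T controls (log2 fold change -1.65 ± 0.053). ASPM had -1.60 ± 0.15 and ANLN -1.36 ± 0.15, and these 3 were the only members at least 2-fold apart as measured. With the trend removed CDC25B (-1.61) and PLK1 (-1.04) were also 2-fold lower. MKI67 (0.83 ± 0.097), CCNB2 (0.79 ± 0.046) and KIF4A (0.74 ± 0.07) had the highest values as measured. With the trend removed CCNB2 (0.83), BUB1 (0.76) and KIF4A (0.71) had the highest, and MKI67 had 0.24. CDC25B (-0.89), CENPA (-0.84), AURKA (-0.72) and PLK1 (-0.58) were lower in H9 controls as measured. ANLN, for which H9 controls were at 3.68 and 3.16 CPM, stood at 11.9 and 10.4 CPM in H9 with eIF2A shRNA and at 8.80 and 8.77 CPM in HEK293T controls.

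Related gene lists held calls in both directions in H9, beside 37% higher and 34.3% lower over all genes as measured, and 20.9% and 29% with the trend removed. Of 15 condensin, cohesin and separase genes, which shape and hold sister chromatids, 11 were higher and 3 lower as measured (median log2 fold change 0.96), and 5 and 2 with the trend removed. SMC4, a condensin ATPase, was higher in H9 (log2 fold change 1.58 ± 0.11) and lower in HEK293T (log2 fold change -0.38 ± 0.088). NCAPG, another condensin subunit, was higher in H9 (log2 fold change 1.40), and PTTG1, the securin that restrains separase, was lower (log2 fold change -0.54). Of 29 other kinetochore and centromere genes, 17 were higher and 8 lower, and 10 and 7 with the trend removed. KNTC1, which recruits dynein to kinetochores, was higher (log2 fold change 1.79 ± 0.11), and CENPW, a small inner kinetochore protein, was lower in H9 (log2 fold change -0.88 ± 0.079) and higher in HEK293T (log2 fold change 0.40 ± 0.055). Of 17 genes for subunits and partners of the anaphase-promoting complex, 8 were higher and 7 lower, and 6 and 6 with the trend removed. CDC27 was higher (log2 fold change 1.42), whereas UBE2S, which extends ubiquitin chains after UBE2C, was lower (log2 fold change -0.75 ± 0.033, and -0.53 with the trend removed).

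Of 13 DREAM, MYBL2-MuvB and FOXM1 genes, 7 were higher and 5 lower in H9 as measured, and 3 and 7 with the trend removed. FOXM1 and MYBL2, activators of late cell cycle genes, were lower in H9, with log2 fold changes of -0.26 ± 0.031 and -0.46 ± 0.031, and of -0.17 and -0.14 with the trend removed. In HEK293T they had 0.08 ± 0.031 (edgeR adjusted p = 0.051) and -0.04 ± 0.031, and neither was called. LIN54, the MuvB subunit that binds the CHR, had 1.25 ± 0.17 in H9 as measured and 0.19 with the trend removed, where it passed no test (edgeR adjusted p = 0.40). Of 8 genes of the kinases that restrain CDK1 and of the Greatwall pathway, 4 were higher and 2 lower as measured, and 3 and 4 with the trend removed. WEE1, the kinase that inhibits CDK1, was higher (log2 fold change 0.75 ± 0.049, and 0.73 with the trend removed; edgeR adjusted p = 1.7e-15). MASTL, the Greatwall kinase that protects the phosphorylation of CDK1 substrates, was higher (log2 fold change 1.53 ± 0.082, and 0.76 with the trend removed). ENSA, a substrate of MASTL, was lower (log2 fold change -0.73 ± 0.035, and -0.31 with the trend removed).

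DNA replication and S phase genes had a median log2 fold change of 0.05 in H9 as measured, against 0.72 for the mitotic genes, and of 0.03 with the trend removed, against 0.04. As measured, 12 of 25 were higher and 8 lower, and 8 and 7 with the trend removed. MCM10, a replication initiation factor, was higher (log2 fold change 1.05 ± 0.083) and MCM5, a helicase subunit, was lower (log2 fold change -0.42 ± 0.03). In HEK293T, 7 of these 25 were higher and 5 lower, against 11 and 5 of the 37 mitotic genes and 14.1% and 14.7% of all genes tested. The difference between the lists was not tested in either line.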

How the data were processed

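RNA was extracted with TRIzol and made into TruSeq Stranded mRNA libraries, per the labels' protocols, and the submitters' processing notes name cutadapt, STAR 2.5.2b and hg19. The authors deposited raw counts, without normalization, for each RefSeq transcript accession. How reads were counted, with which annotation and whether by strand is not given in the sources used here; overlapping sense and antisense genes may share counts. No-feature reads (14.95 to 20.84% of reads) and multiply aligned reads (4.11 to 4.54%) stayed out of library sizes and tests.

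edgeR 4.0.16 (R 4.3.3) was used for the tests: filterByExpr, TMM scaling, 4 group means on 8 libraries with 4 residual degrees of freedom, the robust two-sided quasi-likelihood F test and Benjamini-Hochberg adjustment over 14565 genes, with calls at an adjusted p under 0.05. Log2 fold changes are depleted over control, ± SE from the F statistic, and CPM uses TMM factors. GC content and length came from RefSeq and GENCODE transcripts for 14489 tested genes. A smooth surface over GC content and log2 length was fitted in each library (mgcv 1.9.3) and used as an offset. On simulated counts, a small set of genes was raised 1.5-fold or 2-fold in H9 with eIF2A shRNA, without a trend over GC content or length. Of these, 71.7% and 91.0% were called. In the real H9 data 37% of all genes were called higher and 34.3% lower, so these shares may not hold there.

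The members, lists and tests were chosen with earlier results of these data known. Per-library levels are given for CCNB1, CDK1, MKI67, TOP2A and UBE2C, the 6 largest and 6 lowest log2 fold changes in H9, the 6 smallest p in HEK293T and the 4 smallest p of the difference. Levels of PRC1 and CENPA were added after their values were seen. From each related list the 2 largest called changes in each direction could be named, plus FOXM1, MYBL2, WEE1 and LIN54. The labels do not say what a set is, and set numbers were not treated as pairs. Same-numbered libraries deviated together with a correlation of 0.005 in H9 and -0.015 in HEK293T. Where replicates differ by little more than sampling noise, such values cannot exclude pairing. Alternatives were DESeq2's size factors, DESeq2 1.42.0, upper-quartile scaling, limma-voom (limma 3.58.1), no filter, at least 5 CPM in 2 libraries, 1 line alone, a replicate block, each library left out, and an adjusted p under 0.01. The trend on GC content alone was added after seeing the data.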

Additional observations from a re-analysis of the deposited data

Results flagged for a closer look

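The response to eIF2A depletion differed between H9 and arsenite-treated HEK293T, in edgeR's test of the difference itself, for 33 of the 37 genes, and the values follow for the 7 called in opposite directions and for UBE2C, which was among the 4 smallest p. Given as H9 minus HEK293T on the log2 scale, MKI67 differed by 1.963, TOP2A by 1.951, CENPF by 1.984 and ASPM by 1.78. In the other direction, CDC20 had -0.7271, UBE2C -0.6888, BIRC5 -0.6552 and BUB3 -0.212.

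Outside the gene counts, the share of reads with no counted feature was at least 20.63% in both H9 libraries with eIF2A shRNA, against at most 18.84% in H9 controls.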

How the results depend on the processing

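The number of the 37 genes called higher in H9 was 26 as measured, 13 with the trend removed and 12 with a trend on GC content alone, and those called lower were 8, 10 and 14. Differences higher in H9 numbered 23 as measured, 13 with the trend removed and 12 with GC content alone. Genes higher in H9 controls than in HEK293T controls numbered 16 as measured and 10 with upper-quartile scaling, and DESeq2 called 7 higher in HEK293T in place of 11. DESeq2's size factors shifted the median of all genes in H9 to -0.13 and the split of calls to 4553 higher and 6124 lower, against 5389 and 4991 with TMM, while 24 of the 37 were called higher. The cause was not tested.

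With 1 library left out, genes called higher in H9 ranged from 24 to 26 and lower from 6 to 8. In HEK293T they ranged from 7 to 11 and from 2 to 5, for the difference from 22 to 23 and from 8 to 10, and for the controls from 13 to 16 and 14 throughout. EIF2A ranged from -1.72 to -1.60 in H9 and from -1.68 to -1.58 in HEK293T. Among control differences, CDC25C lost its call without H9 control replicate 1 (0.13) or HEK293T control siRNA replicate 1 (0.13), NUSAP1 without the same libraries (0.10 and 0.13), and TOP2A without H9 control replicate 1 (0.19) or HEK293T control siRNA replicate 2 (0.14).

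Signs that turned in H9 with the trend removed were those of AURKA (-0.22), AURKB (0.036), CCNA2 (-0.10), CCNB1 (-0.47), CCNB2 (-0.14), CENPE (-0.33), MAD2L1 (-0.72) and TTK (-0.023). For the difference they were AURKB (0.14), CENPE (-0.42), KIF20A (-0.0052) and TPX2 (-0.12), and for the controls AURKB (-0.37) and CDK1 (0.27). With GC content alone they were AURKA (-0.37), CCNA2 (-0.19), CCNB1 (-0.67), CCNB2 (-0.43), CDK1 (-0.34), CENPE (-0.083), MAD2L1 (-0.55), NUF2 (-0.0030) and TTK (-0.035) in H9, CCNA2 (-0.085), CDK1 (-0.47), CENPE (-0.067), NUSAP1 (-0.14) and TPX2 (-0.069) for the difference, and AURKB (-0.40), CDC25C (-0.023) and CDK1 (0.24) for the controls. Against genes of like GC content and length, the sign turned for AURKA (-0.16), AURKB (0.086), CCNA2 (-0.12), CDC25B (0.041), CENPE (-0.39), KIF20B (-0.025) and MAD2L1 (-0.87) in H9, AURKB (0.14) and CENPE (-0.35) for the difference, and AURKB (-0.073) for the controls. DESeq2's size factors turned AURKA (-0.015), CCNB1 (-0.15), CCNB2 (-0.12) and KIF2C (-0.028) in H9, the DESeq2 test turned AURKA (-0.015), CCNB1 (-0.15) and KIF2C (-0.028), and upper-quartile scaling turned AURKB (-0.054), BUB3 (-0.018) and CDC25C (-0.0039) between the controls.

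A replicate block, without evidence that the numbers pair, gave 26 higher and 8 lower in H9, 10 and 5 in HEK293T, and 23 and 9 for the difference, and EIF2A was -1.66 and -1.63. With the block and the trend removed together, these were 13 and 10, 8 and 6, and 13 and 11. The signs turned for AURKA (-0.22), AURKB (0.036), CCNA2 (-0.10), CCNB1 (-0.47), CCNB2 (-0.14), CENPE (-0.33), MAD2L1 (-0.72) and TTK (-0.023) in H9, and for AURKB (0.14), CENPE (-0.42), KIF20A (-0.0065) and TPX2 (-0.12) in the difference.

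Depth limits the least abundant genes: KIF18A, CENPE and KIF20B had as few as 32, 42 and 52 counts in a library, and their SEs in H9 were 0.21, 0.19 and 0.16.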
